A study of Mus musculus with 5 samples.

Results

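Hemoglobin-rich erythroid cells were 320 of the 21520 cells kept from the 3 libraries of whole bone marrow (BM), naive, D2 CTX and D7 CTX, and of the 25975 cells kept from all 5 single-cell libraries of the study. Members were chosen by measured transcripts. A cell was counted when Hbb-bs, Hbb-bt, Hba-a1 and Hba-a2, the adult beta- and alpha-globin genes, together held at least 10% of its unique molecular identifiers (UMIs, each standing for 1 captured mRNA molecule) and when Cd79a, a B cell receptor gene, had no UMI in it. Cells were kept with at least 200 genes detected and under 20% of UMIs from mitochondrial genes. Since the globins and Cd79a chose the members, their levels are given as a description only. The BALB/c mice were 4 to 8 weeks old when bought. Naive mice were untreated, and the other groups had received cyclophosphamide (CTX, an alkylating agent that damages DNA) at 150 mg/kg into the peritoneum 2 days (D2 CTX) or 7 days (D7 CTX) before BM was taken. Each condition was 1 library, made from live cells of 3 mice pooled in equal numbers, and no test across mice was possible. The labels call the cells BM mononuclear cells that carry CD45, the leukocyte antigen encoded by Ptprc. Both libraries of monocytes sorted as CD11b+Ly6Chi held no member, and globins made up at most 0.0367% of the UMIs of a kept cell in the naive one and 0.211% in the D7 CTX one.

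Erythroid cells arise in BM from committed progenitors that divide several times while globin and heme synthesis increase, then leave the cell cycle, expel the nucleus and become reticulocytes. Globin mRNA comes to dominate as most other transcripts and the organelles are cleared, so that globin share, number of other transcripts and cell cycle genes follow maturation. Dividing erythroid precursors are among the BM cells known to be sensitive to CTX.

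The promoters of the globin genes are shown because the alpha-globin pair differed in share between libraries while its promoters hardly differ in sequence. The 250 bases before each RefSeq start site are given 5′ to 3′ on the strand of the gene (RefSeq, GRCm38.p6), with capitals for matches to AGATAA or TGATAA, the letters of the GATA1 motif, and to CACCC, bound by KLF1, on either strand. Hbb-bs lies at chr7:103827929-103828178 and Hbb-bt at chr7:103813924-103814173, both on the minus strand. Hba-a1 lies at chr11:32283422-32283671, Hba-a2 at chr11:32296242-32296491 and Alas2, the first enzyme of heme synthesis in erythroid cells, at chrX:150547167-150547416, all on the plus strand.
Hba-a1: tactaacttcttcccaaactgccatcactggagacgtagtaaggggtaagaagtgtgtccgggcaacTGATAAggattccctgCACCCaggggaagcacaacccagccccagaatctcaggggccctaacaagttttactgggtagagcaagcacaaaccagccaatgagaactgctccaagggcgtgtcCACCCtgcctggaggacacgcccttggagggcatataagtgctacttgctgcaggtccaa
Hba-a2: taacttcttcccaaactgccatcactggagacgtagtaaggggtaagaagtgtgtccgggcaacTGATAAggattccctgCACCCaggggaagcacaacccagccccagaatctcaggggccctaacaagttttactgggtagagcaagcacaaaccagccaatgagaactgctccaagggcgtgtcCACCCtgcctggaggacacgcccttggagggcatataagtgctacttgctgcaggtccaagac
Hbb-bs: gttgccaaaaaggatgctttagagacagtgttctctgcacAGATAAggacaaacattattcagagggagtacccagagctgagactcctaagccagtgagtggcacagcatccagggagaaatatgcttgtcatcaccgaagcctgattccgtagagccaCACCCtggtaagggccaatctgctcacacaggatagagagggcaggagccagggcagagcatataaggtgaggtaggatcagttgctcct
Hbb-bt: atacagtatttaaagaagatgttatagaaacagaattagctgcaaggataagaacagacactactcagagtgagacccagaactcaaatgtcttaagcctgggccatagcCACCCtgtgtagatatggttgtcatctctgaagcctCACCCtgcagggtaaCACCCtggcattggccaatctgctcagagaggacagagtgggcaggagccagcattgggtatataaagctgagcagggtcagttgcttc
Alas2: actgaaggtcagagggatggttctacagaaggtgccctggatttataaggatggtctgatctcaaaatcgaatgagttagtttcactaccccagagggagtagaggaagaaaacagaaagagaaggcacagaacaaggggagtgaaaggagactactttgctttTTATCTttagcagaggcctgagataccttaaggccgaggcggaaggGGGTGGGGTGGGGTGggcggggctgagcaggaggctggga
The alpha-globin windows shared an identical run of 247 bases, with 1 GATA match and 2 CACCC matches in each. The longest run shared by the beta-globin windows was 14 bases. Hbb-bs held 1 match to each motif, and Hbb-bt held 3 CACCC matches and no GATA match. Alas2 held 1 GATA match and 3 CACCC matches that adjoin each other and lie on the opposite strand. Among 32851 promoter windows of the same length, 16.6% held a GATA match, 52.0% a CACCC match and 7.11% both, so the letters alone are common. The window of Klf1, an erythroid transcription factor, held 1 match to each. None was found in the windows of Bpgm and Fam46c (listed by RefSeq as Tent5c), described below with late erythroid genes, or of Epb41, described with the membrane. One of the windows of Mkrn1, another late gene, held 1 CACCC match, and those of Tfrc, the transferrin receptor, held 2 and 3. Of 17 genes looked up, 11 had a window, and Slc4a1, Car1, Car2 and Xpo7 are described without one.

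Summed over members, erythroid transcripts were found in all 3 libraries. Levels are UMIs summed over the members of a library, scaled to counts per 1e6 UMIs outside the 4 globin genes of the rule (CPM). Alas2 was at 975 CPM in naive members, 2702 CPM on day 2 and 497 CPM on day 7, against 13.6 CPM in the other kept cells of naive BM. Slc4a1, the anion exchanger of the red cell membrane, was at 1980, 2871 and 1284 CPM, against 39.5 CPM in other naive cells. Among genes with at least 100 CPM in naive members, these had the highest ratios over other naive cells, with log2 ratios of 6.06 and 5.61. The 15 highest also included Fn3k, Slc6a9, Gm867, Ackr1, Epb42, Sox6, Dmtn, Tmod1, Sptb and Pdzk1ip1, of which Epb42, Dmtn, Tmod1 and Sptb encode parts of the membrane skeleton. Alas2 and Slc4a1 were still detected in 38.4% and 56.9% of naive members after each cell was thinned to 500 UMIs outside the globins, against 0.140% and 0.186% of B lineage cells treated alike. The median depth was 12226.5 UMIs in naive members and 2932 in naive B lineage cells before thinning. Ptprc, which the labels give as carried by the cells, had a UMI in 2.59% of thinned naive members and 20.5% of thinned naive B lineage cells. In D2 CTX members it was 22.4% (11 of 49 cells). In D7 CTX members Ptprc was found in 0 of 10 thinned cells (exact 95% upper limit 30.8%) and in 2 of 12 before thinning. Of the 62 D2 CTX members, 31 had the neutrophil genes S100a8 and S100a9 under 1% of UMIs. Before thinning, these 31 included all 8 members with Klf1, 25 of the 32 with Slc4a1 and 28 of the 55 with Alas2.

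Naive cells on either side of the 10% threshold had close levels of these genes. In 30 naive members with 10 to 12% globin, Alas2 was at 385 CPM, Slc4a1 at 1184 CPM and Klf1 at 513 CPM. In 25 naive cells with 8 to 10% globin the levels were 327, 977 and 542 CPM. Car1, a carbonic anhydrase of early erythroid precursors, was at 1049 CPM inside and 1263 CPM outside. At D2 CTX 4 members lay just inside and only 2 cells just outside it, and those 2 had no UMI of Alas2, Slc4a1, Car1 or Klf1. The 4 members had no UMI of Car1 or Klf1 either, with Alas2 at 863 CPM and Slc4a1 at 493 CPM. The neutrophil genes S100a8 and S100a9 held a median of 16.0% of UMIs in the 4 members and 25.9% in the 2 cells.

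The members of the 3 libraries differed in depth and in neutrophil transcripts, which bears on every comparison between them. Naive members had a lowest, median and highest count of 505, 12226.5 and 34422 UMIs. D2 CTX members had 517, 2421.5 and 12723 UMIs. D7 CTX members had 623, 12898 and 30941 UMIs. D2 CTX members were thus the shallowest, with a median of 517.5 genes against 2503.5 in naive and 2348 in D7 CTX members, while the median of all kept cells was 3953.5, 3033.5 and 7189.5 UMIs. S100a8 and S100a9, the most abundant mRNAs of neutrophils, held at least 1% of UMIs in 30 of 246 naive members (12.2%), in 31 of 62 D2 CTX members (50%) and in 3 of 12 D7 CTX members (25%). Cells of other types give no free measure of background globin, since B lineage cells and neutrophils were defined with under 1% globin. The part of free RNA and of doublets in the S100 transcripts of members was not tested. Cells with the highest Scrublet scores were called doublets up to an expected rate, so the number called per library was set in advance. Of 404 cells called among 7104 kept naive cells, 29 were members, of which 12 had S100a8 and S100a9 at 1% and over. On day 2 300 cells and on day 7 550 cells were called, none of them members. A member that was not called may still be a doublet. Between 6 and 16 cell barcodes were shared between pairs of libraries, and none belonged to a member.

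**Figure D1:**
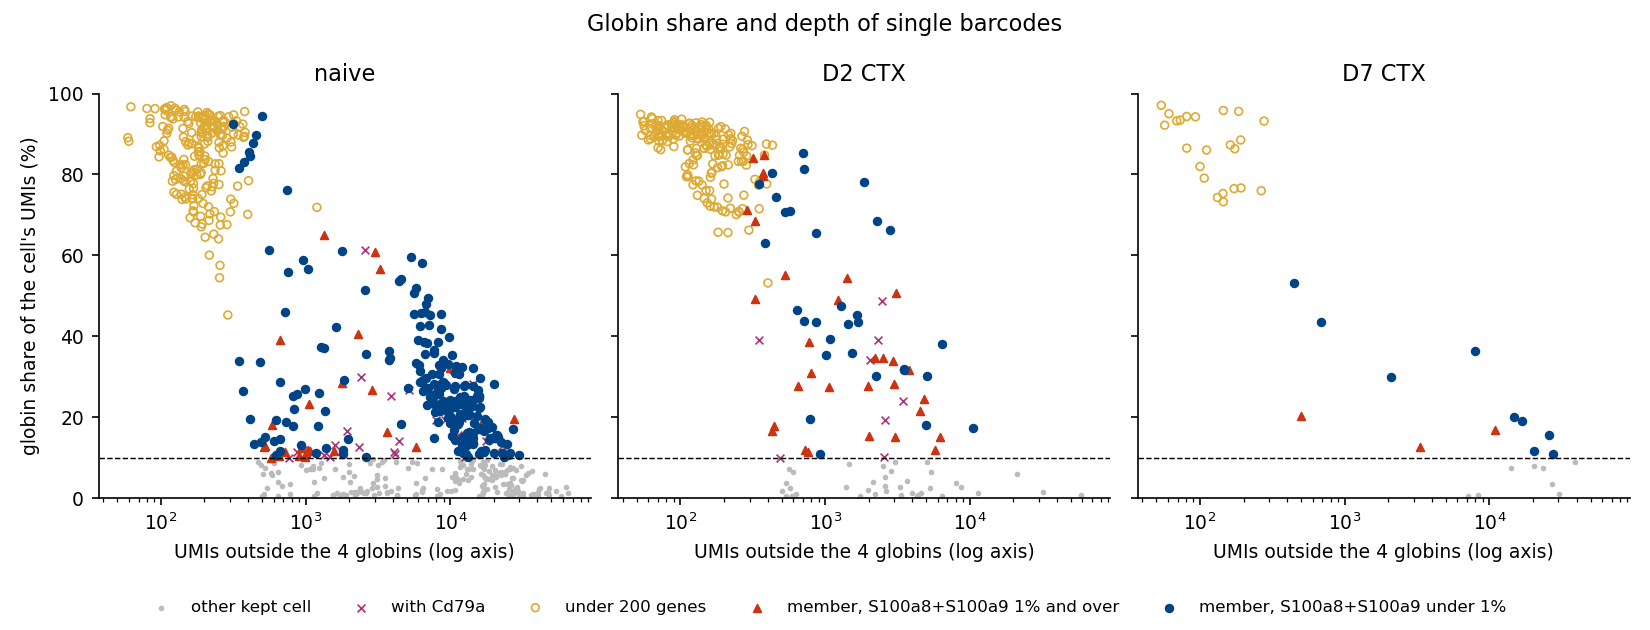
Each point is 1 barcode, in a panel per library, with UMIs outside the 4 globins on a log axis and the globin share of its UMIs in percent; the dashed line is the 10% threshold. Members with S100a8+S100a9 under 1% of UMIs (circles) outnumber those with 1% and over (triangles) by 216 to 30 in naive BM and equal them, at 31 each, in D2 CTX BM, and barcodes with under 200 genes (open circles) lie at the upper left.

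Hemoglobin-rich cells were a smaller share of the kept cells after CTX. They were 246 of 7104 cells in naive BM (3.46%, exact 95% interval 3.05% to 3.91%), 62 of 6126 in D2 CTX BM (1.01%, 0.777% to 1.30%) and 12 of 8290 in D7 CTX BM (0.145%, 0.0748% to 0.253%). The log2 ratio over naive was -1.77 (-2.20 to -1.37) on day 2 and -4.58 (-5.55 to -3.75) on day 7. All intervals here cover counting error only and say nothing of the spread between mice or libraries. The shares are fractions of a library, in which neutrophils made up 44.3%, 47.3% and 82.4% of kept cells. With the neutrophil class taken out of the denominator, the log2 ratio was -1.70 on day 2 and -2.92 on day 7. With every cell left out that had 2% of UMIs or more from S100a8 and S100a9, which took 26 of the 62 D2 CTX members as well, it was -2.26 and -3.05. When globin-rich barcodes under 200 genes were counted with the members, over all barcodes, the day 2 ratio was -0.60. Lysis of red cells is described in the study for flow cytometry and sorting. Whether it was applied to these libraries is not given in the sources used here.

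The lower share on day 2 was seen most among members with fewer globin transcripts. Members with 10 to 25% globin numbered 134 in naive BM, 14 on day 2 and 8 on day 7, a log2 ratio of -3.05 (-3.95 to -2.25) for D2 CTX over naive. Members with 25 to 50% globin were 88, 27 and 3 cells, a log2 ratio of -1.49 (-2.17 to -0.85). Members with 50% globin and over were 24, 21 and 1 cells, or 0.338%, 0.343% and 0.0121% of kept cells, a log2 ratio of 0.02 (-0.90 to 0.93). After leaving out members with S100a8 and S100a9 at 1% of UMIs and over, 21 naive cells and 12 on day 2 were left in this class, with a log2 ratio of -0.59 (-1.75 to 0.50), and 113 and 4 in the lowest class, with -4.61 (-6.51 to -3.21). The intervals of the lowest and highest class did not overlap on day 2, whereas on day 7 all 3 classes were below naive, with log2 ratios of -4.29 (-5.53 to -3.27), -5.10 (-7.40 to -3.50) and -4.81 (-10.17 to -2.19). Cells with 50% globin and over were accordingly 9.76% of naive members (6.35% to 14.2%), 33.9% on day 2 (22.3% to 47.0%) and 1 of 12 members on day 7.

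Barcodes with globins above the threshold but under 200 genes, which the rule leaves out, extended this pattern. They had a median globin share of 87.6%, 88.8% and 87.3% and a median of 190, 136 and 132 other UMIs. There were 210 of 7649 barcodes in naive (2.75%), 198 of 6608 in D2 CTX and 23 of 8605 in D7 CTX (0.267%), log2 ratios over naive of 0.13 (-0.16 to 0.41) and -3.36 (-4.05 to -2.74). Of all globin-rich barcodes, 46.0%, 76.2% and 65.7% fell under 200 genes. Of all globin UMIs of the library, members held 56.4%, 27.6% and 41.1%, and these barcodes held 28.7%, 66.4% and 42.2%. Globins made up 2.64% of all UMIs in naive BM, 0.905% on day 2 and 0.0990% on day 7. Erythroid cells below the globin threshold, taken as cells with Klf1 and at least 2 of 5 other early erythroid genes, were 195, 45 and 11 cells, with log2 ratios of -1.90 (-2.40 to -1.43) and -4.37 (-5.40 to -3.50).

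**Figure D2:**
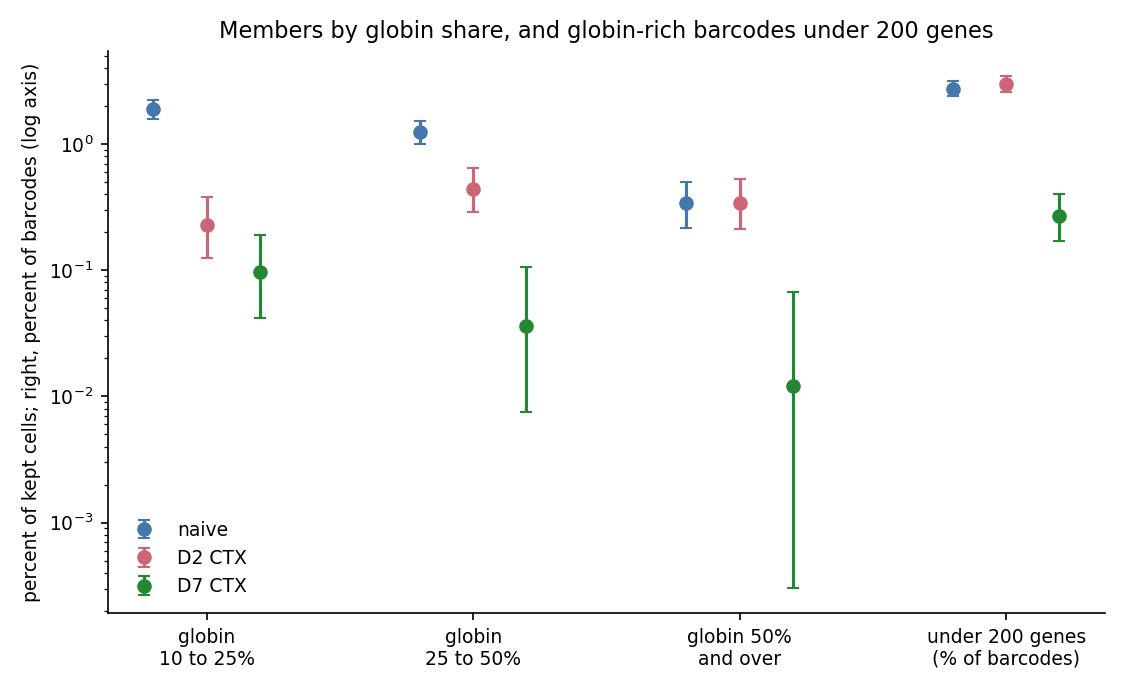
Points give, for each library, the percent of kept cells for members by globin share and, at the right, the percent of barcodes that were globin-rich with under 200 genes, on a log axis with exact 95% intervals (counting error only). D2 CTX lies below naive at 10 to 25% globin (0.229% against 1.89%) and beside it at 50% and over (0.343% against 0.338%), and D7 CTX lies below naive in each class.

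Among the globin genes, the balance of beta to alpha differed little and the share of Hba-a2 differed between libraries. Beta-globin was 63.4%, 63.9% and 66.4% of globin UMIs in members of naive, D2 CTX and D7 CTX BM, and 62.9%, 61.6% and 61.8% when each cell counted equally, so the order of the libraries depended on this choice. Hbb-bt was 10.2%, 10.5% and 9.46% of beta-globin UMIs. Hba-a2 was 26.6% of alpha-globin UMIs in naive members (26.4% to 26.7%), 46.5% in D2 CTX members (45.9% to 47.0%) and 23.2% in D7 CTX members (22.4% to 24.1%). Within naive BM this share was higher with more globin, at 22.0% in members with 10 to 25%, 26.5% with 25 to 50%, 41.9% with 50% and over and 48.1% in barcodes under 200 genes. D2 CTX members had 40.2%, 45.3% and 48.4% in the same 3 classes, and D2 CTX barcodes under 200 genes had 47.2%. D7 CTX members had 21.3% and 27.1% in the lower classes, and D7 CTX barcodes had 46.2%. D2 CTX was thus above naive by similar amounts in both classes under 50% globin, and the libraries were within 3 percentage points of each other in the barcodes. Hbb-bt of beta-globin was also higher with globin share in naive members, at 7.88%, 11.2% and 14.1%, but not in D2 CTX members above 25% globin, at 8.89%, 10.7% and 10.7%. The paralogs are alike toward the 3′ end that the assay reads, with 89.6% of aligned positions identical between Hba-a1 and Hba-a2 and 86.2% between Hbb-bs and Hbb-bt in the last 300 bases. The last 100 bases were less alike, at 72.4% and 67.3%, and BALB/c mice carry other adult beta-globin alleles than the reference strain. Reads may thus be assigned to the other copy, and the split within each pair is uncertain. Of the embryonic globins, Hba-x and Hbb-bh1 had no UMI in any member, and Hbb-y had 1 UMI in naive members. Hbq1b, a minor alpha-like globin, was at 56.1 CPM in naive members, 202 CPM on day 2 and 7.64 CPM on day 7, the last from 1 UMI.

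**Figure D3:**
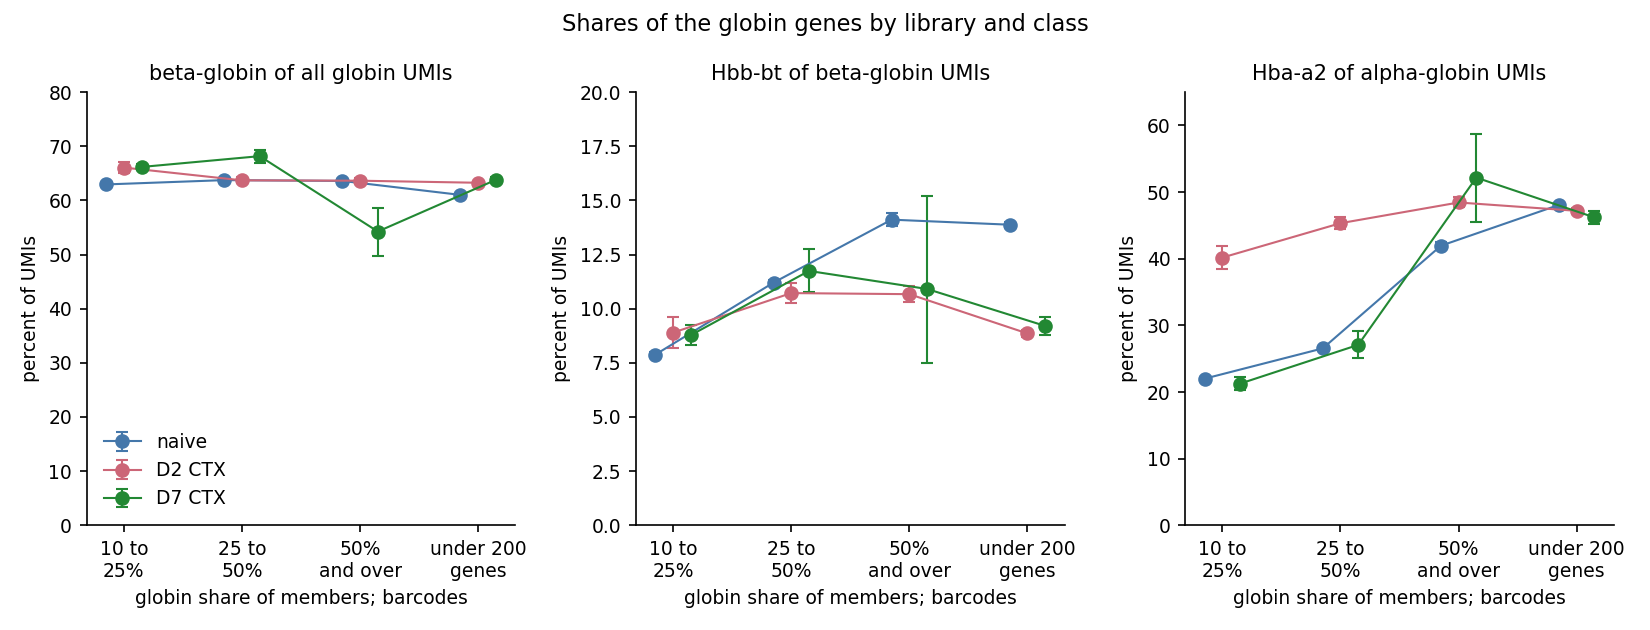
Panels give beta-globin as a percent of globin UMIs, Hbb-bt as a percent of beta-globin UMIs and Hba-a2 as a percent of alpha-globin UMIs, for members by globin share and for globin-rich barcodes under 200 genes, with exact 95% intervals. Hba-a2 is between 40.2% and 48.4% in every D2 CTX class and climbs from 22.0% to 48.1% across the naive classes; the D7 CTX value at 50% and over is 1 cell.

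Gene levels in D2 CTX members were next set against naive members, for genes with at least 50 UMIs over both libraries and 20 CPM in one of them. With 1 CPM added, 584 of 4762 genes (12.3%) had a log2 ratio of 1 or more and 1676 (35.2%) of -1 or less, and the median over all genes was -0.56. This is a rule of size without a test. Of the calls, 25.8% were higher, which became 47.9% when the libraries were scaled by the median of the gene ratios and 16.0% when globins were counted in the CPM. The median of all genes was then -0.06 and -0.93, so that ratios near 0 take their sign from the scaling. The 15 highest were Hdc, Mmp8, Adam8, Trib1, Ccr1, Gm5483, Csf3r, Pygl, S100a6, BC100530, Rsad2, Wfdc17, Xpo7, Tcp11l2 and Cd33, with Hdc at a log2 ratio of 5.47. Of these, 10 were below 20 CPM in naive members and so passed the filter through the D2 CTX members alone. The 15 lowest had no UMI in D2 CTX members and were at least 2.48- to 5.61-fold lower against a floor of 3 UMIs over those members (25.3 CPM). The comparison was repeated in members with S100a8+S100a9 under 1% of UMIs, which were 216 naive, 31 D2 CTX and 9 D7 CTX cells (below, the S100 limit). There 553 of 4472 genes (12.4%) were higher and 1186 (26.5%) lower, with a median of -0.22. The share of hemoglobin-rich cells counted this way had log2 ratios of -2.59 on day 2 and -4.81 on day 7. The UMIs of D2 CTX members came from few cells, as the deepest held 8.85% and the 5 deepest 28.6% of the 118794 UMIs outside globins, and 17.0% and 49.4% after the S100 limit.

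Among the erythroid gene groups, that of late maturation had the highest median in D2 CTX members, both with and without the S100 limit. All groups below were listed with earlier results of these data known, and their counts are read beside the percentages just given. Of 12 genes for clearance of organelles and proteins and for enucleation, 11 passed the filter, 9 of them were higher in D2 CTX members and none lower, with a median log2 ratio of 2.42. After the S100 limit 10 of 11 were higher, with a median of 2.95. Bpgm, which makes 2,3-bisphosphoglycerate in red cells, was at 82.3 CPM in naive members (100 of 246 cells), 1439 in D2 CTX members (37 of 62) and 61.2 in D7 CTX members (7 of 12). Its log2 ratio for D2 CTX over naive was 4.11 (3.82 to 4.44). Xpo7, a nuclear exporter needed for enucleation, was at 57.5, 1397 and 68.8 CPM in naive, D2 CTX and D7 CTX members, a log2 ratio of 4.58 (4.26 to 4.95) on day 2. Both genes were thus at their highest in D2 CTX members.

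Most other genes of this group were also higher in D2 CTX members. Fam46c, a poly(A) polymerase of late erythroblasts, was at 139, 1599 and 130 CPM, with a log2 ratio of 3.51 on day 2. Mkrn1, a ubiquitin ligase, was at 495, 3359 and 474 CPM and was detected in 55 of 62 D2 CTX members, with a log2 ratio of 2.76. Ube2l6 and Ube2o, ubiquitin-conjugating enzymes of which the latter clears ribosomal proteins in reticulocytes, had log2 ratios of 2.39 and 2.42. Bnip3l, the receptor that marks mitochondria for removal, had 1.46. The genes that did not pass the size rule were Trim10 at 0.87 and Isg20, a nuclease, at -0.58, which was 0.25 after the S100 limit. Outside the lists, Rsad2, known as an interferon-induced gene, was at 83.2, 2163 and 130 CPM in naive, D2 CTX and D7 CTX members, against 7.32 CPM in other naive cells. It was detected in 37 of 62 D2 CTX members, with log2 ratios of 4.68 in all members and 5.45 after the S100 limit. Tmcc2, at 81.8, 1734 and 84.1 CPM, had a log2 ratio of 4.39. After the S100 limit the 15 highest genes included Xpo7, Rsad2, Tmcc2, Tbcel, Apol11b, Bcl2l1, Bpgm, Slfn14, Fam220a, Trp53inp1, Gpcpd1, Retnlg, Gda and Fam46c, of which Retnlg is a neutrophil gene. Tbcel was at 16.4 CPM in all naive members, below the 20 CPM that the filter asked of one library.

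The late genes were also compared within classes of globin share, in which D2 CTX members still held more globin, with medians of 31.1% against 22.2% at 10 to 50% and 71.2% against 60.9% at 50% and over. Among members with 10 to 50% globin, 526 of 4654 genes (11.3%) were higher in D2 CTX and 1571 (33.8%) lower, and 7 of 10 late genes were higher, with a median log2 ratio of 1.60. Among members with 50% globin and over, 53 of 211 genes (25.1%) were higher and 72 (34.1%) lower, and 9 of 10 late genes were higher, with a median of 1.73. Bpgm was at 54.8, 55.6 and 1187 CPM in naive members with 10 to 25%, 25 to 50% and 50% globin and over. In D2 CTX members it was at 240, 1001 and 5573 CPM. Its counting intervals did not overlap between these libraries in any of the 3 classes. After the S100 limit, which left 4 of the 14 D2 CTX members with 10 to 25% globin, they overlapped in that class, at 233 CPM (63.5 to 597, from 4 UMIs) against 54.2 CPM (42.4 to 68.2). In barcodes under 200 genes Bpgm was at 10283 CPM in naive BM, 9051 CPM on day 2 and 8141 CPM on day 7, and none of 10 late genes was higher or lower on day 2. Of all 206 genes compared in those barcodes, 15 (7.28%) were higher and 45 (21.8%) lower. The libraries thus differed in late genes among members and did not pass the size rule for these genes in the barcodes with least other RNA.

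**Figure D4:**
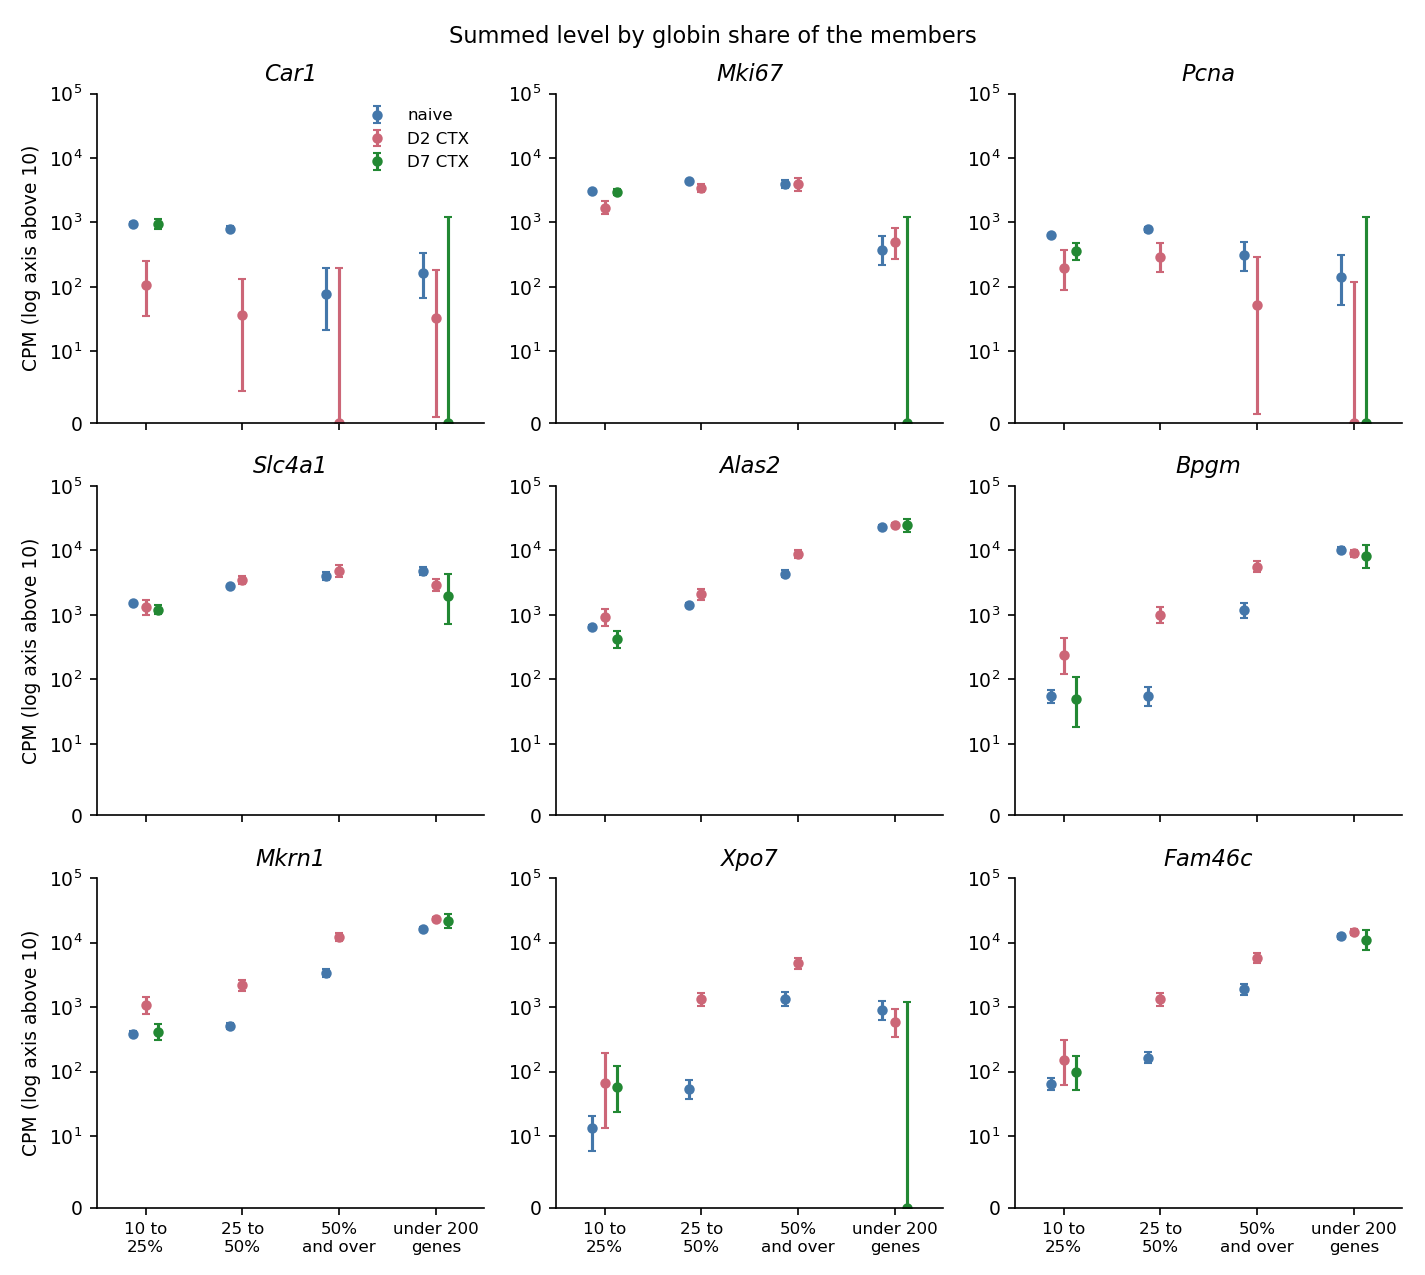
Summed levels of 9 genes in CPM (axis linear to 10 and logarithmic above) for members of each library by globin share and for globin-rich barcodes under 200 genes, with exact 95% Poisson intervals; D7 CTX members above 25% globin, 4 cells, are not drawn. Bpgm climbs from 54.8 to 1187 CPM across the naive classes and from 240 to 5573 CPM across the D2 CTX classes, while Car1 is at 951 CPM in naive and 109 CPM in D2 CTX members with 10 to 25% globin.

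Heme synthesis genes did not move as a group. Of 11 measured, 1 was higher and 4 lower in D2 CTX members, with a median log2 ratio of -0.72, close to the -0.56 of all genes. After the S100 limit 2 were higher and 1 lower and the median was 0.15, so its sign depended on the members counted. Alas2 was detected in 55 of 62 D2 CTX members and had a log2 ratio of 1.47 (1.30 to 1.64). Fech, which inserts iron into protoporphyrin as the last step, was at 722, 1389 and 550 CPM in naive, D2 CTX and D7 CTX members, with log2 ratios of 0.94 in all D2 CTX members and 1.60 after the S100 limit. Other genes of the pathway were lower. Alad, the second enzyme, was at 3464, 1322 and 3264 CPM, and its D2 CTX UMIs came from 9 cells. Its log2 ratio was -1.39 in all members and -0.50 after the S100 limit. Cpox, a later enzyme of the pathway, and Tmem14c, a mitochondrial porphyrin carrier, were lower, at -1.80 and -2.19 in all members. At most 1 of these 2 calls held after the S100 limit, where 1 gene of the list was lower.

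Iron genes split by gene, and most membrane genes did not pass the size rule. Of 8 iron genes that passed the filter, 1 was higher and 3 lower, with a median of -0.03. Under the S100 limit 2 were higher and 1 lower, with a median of 0.39. Ncoa4, which directs ferritin to degradation, was at 97.7, 539 and 76.4 CPM in naive, D2 CTX and D7 CTX members, a log2 ratio of 2.45. Fth1, the ferritin heavy chain, was at 12216, 5985 and 10686 CPM, a log2 ratio of -1.03 that was -0.70 after the S100 limit. Tfrc, the transferrin receptor, was at 1197, 1078 and 894 CPM, a log2 ratio of -0.15 on day 2 that was 0.65 after the S100 limit. Slc25a37, the mitochondrial iron importer, was at 1370, 2382 and 963 CPM, a log2 ratio of 0.80 that was 1.43 after the S100 limit. Of 18 membrane and skeleton genes, 1 was higher and 1 lower, with a median of -0.04, and with the S100 limit 3 were higher and 1 lower, with a median of 0.84. Epb41, which ties spectrin to the membrane, was the higher one, at 283, 1633 and 183 CPM and 2.52 log2 units, and Icam4, an adhesion molecule of erythroblasts, the lower one, at 372, 92.6 and 283 CPM. Slc4a1 had a log2 ratio of 0.54 in all members and 1.35 after the S100 limit.

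Regulators and enzymes split by gene. Of 11 erythroid transcription factors, 1 was higher and 3 lower in D2 CTX members, with a median of -0.67, near that of all genes, which was 0.24 after the S100 limit. Nfe2, a factor of globin transcription, was the higher one, at 146, 471 and 91.7 CPM and 1.68 log2 units. Klf1 was at 617, 269 and 535 CPM, from 8 D2 CTX cells, and its log2 ratio of -1.19 became -0.30 (-0.85 to 0.20) after the S100 limit. Gata1 was at 215, 135 and 161 CPM in naive, D2 CTX and D7 CTX members, a log2 ratio of -0.67 whose interval held 0 (-1.49 to 0.04) and that was 0.24 (-0.57 to 0.96) after the S100 limit. Of 9 genes of the erythropoietin receptor pathway 5 passed the filter and 2 were higher. These were Bcl2l1, which encodes the survival factor Bcl-xL, at 27.1, 455 and 7.64 CPM and 4.02 log2 units, and Pim1, a kinase induced by the receptor, at 117, 556 and 122 CPM and 2.23. Epor itself was at 155, 152 and 76.4 CPM, a log2 ratio of -0.03 on day 2 that was 0.90 after the S100 limit. Of 8 red cell enzymes, 2 were higher and 3 lower, with a median of -0.34 that was 0.09 after the S100 limit. The higher ones were Cat, which encodes catalase, at 2.52 and Aldoa, a glycolytic enzyme that the files list in 2 rows, at 2.37 in the row used, which did not pass the filter after the S100 limit, whereas Blvrb and Prdx2, of heme breakdown and peroxide removal, had -1.65 and -1.24, or -0.84 and -0.53 after the S100 limit. Gpx1, a glutathione peroxidase, was at 5889, 10194 and 4984 CPM, a log2 ratio of 0.79 on day 2 that was 1.48 after the S100 limit. Car2, a carbonic anhydrase, was at 5364, 5312 and 5381 CPM, with log2 ratios of -0.01 and 0.79.

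Car1 was the one progenitor gene among 6 listed that passed the filter. It was at 886 CPM in naive members (182 of 246 cells), 58.9 CPM in D2 CTX members (7 UMIs in 4 of 62 cells) and 864 CPM in D7 CTX members (113 UMIs in 4 of 12 cells). The log2 ratio for D2 CTX over naive was -3.89 (-5.23 to -2.86). After the S100 limit Car1 was at 911 CPM in naive and 113 CPM in D2 CTX members. D2 CTX members lay below naive also within a class, at 109 against 951 CPM with 10 to 25% globin. With 25 to 50% globin they had 2 UMIs, or 37.1 CPM (4.49 to 134), below the floor of 55.6 CPM, against 805 CPM in naive. With the S100 limit the lower class had 291 CPM (94.6 to 680, from 5 UMIs in 4 cells) against 977 CPM (925 to 1032). After thinning, Car1 was detected in 32.3% of naive members, in 0 of 49 D2 CTX members (exact 95% upper limit 7.25% of cells thinned alike), and in 1 of 10 D7 CTX members. B lineage cells of naive BM had it in 0.373% of thinned cells.

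**Figure D5:**
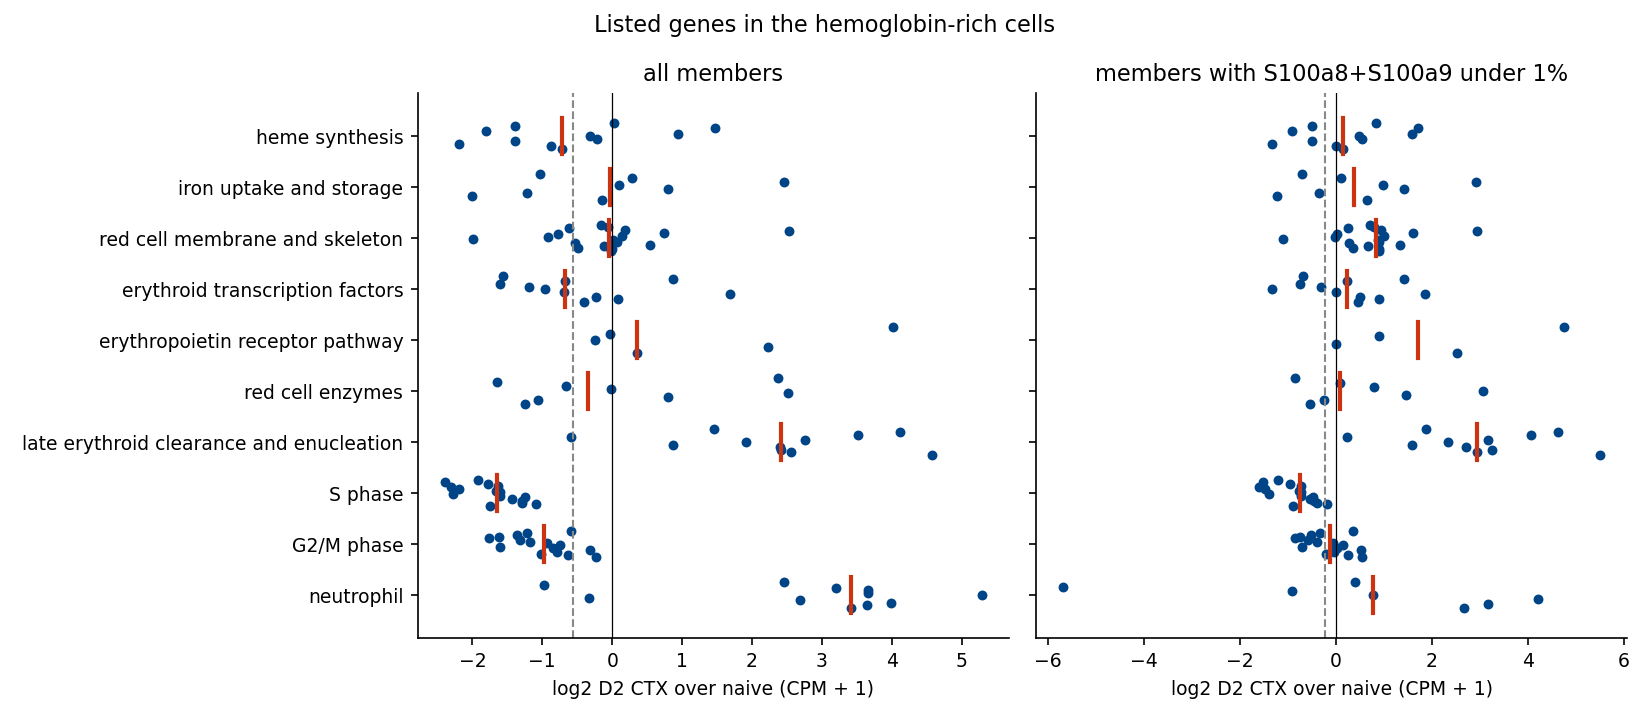
Each point is 1 listed gene that passed the filter, at its log2 ratio of D2 CTX over naive (CPM with 1 added), for all members at the left and for members with S100a8+S100a9 under 1% of UMIs at the right; red bars are list medians and the dashed line is the median of all genes (-0.56 and -0.22). Late erythroid genes lie highest of the erythroid lists on both sides (medians 2.42 and 2.95), S phase genes lowest of the 10 lists drawn (-1.65 and -0.74), and neutrophil genes reach 5.29 at the left.

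S phase transcripts were lower in D2 CTX members, and how far cell cycle genes stood below all genes depended on the S100 limit. All 16 S phase genes were at least 1 log2 unit lower, with a median of -1.65, and after the S100 limit 5 of 16 were, near the 26.5% of all genes, with a median of -0.74. Summed over the list, S phase genes were at 8427, 2727 and 6642 CPM in naive, D2 CTX and D7 CTX members. Pcna, the replication clamp, was at 669, 219 and 413 CPM, a log2 ratio of -1.61 on day 2 that was -0.72 after the S100 limit. Of 16 G2/M genes 8 were lower and none higher, with a median of -0.98, and after the S100 limit none was lower. Their sum was 11613, 7096 and 10396 CPM in all members and 11979, 13172 and 10945 CPM after the limit, so the order of naive and D2 CTX turned with it. Mki67, the proliferation marker, was at 3536, 2837 and 2966 CPM, with log2 ratios of -0.32 in all D2 CTX members and 0.53 after the S100 limit.

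The share of members with G2/M transcripts was counted after thinning each cell to 500 UMIs outside globins. At least 2 such UMIs were found in 203 of 232 naive members (87.5%, 82.5% to 91.5%), 16 of 49 D2 CTX members (32.7%, 19.9% to 47.5%) and 8 of 10 D7 CTX members (80%, 44.4% to 97.5%). Another 14, 13 and 2 members were too shallow to be thinned. Without thinning the shares were 91.9%, 38.7% and 100%. Neutrophils thinned alike, at median depths of 3963.5, 3345 and 7155 UMIs, had 8.29%, 5.59% and 11.5%. B lineage cells had 19.6%, 1.82% and 29.8%, and erythroid cells below the globin threshold had 56.4%, 33.3% and 81.8%. Each of these classes was thus also lower on day 2 than in naive BM. After the S100 limit the members' shares were 87.6%, 51.9% and 75%, so that D2 CTX was closer to naive but still below it, with an interval of 31.9% to 71.3% against 82.3% to 91.8%. Among all members by globin share, naive and D2 CTX had 87.0% and 16.7% at 10 to 25% and 91.8% and 38.5% at 25 to 50%. At 50% and over they had 56.25% (29.9% to 80.2%) and 45.5% (16.7% to 76.6%), with intervals that overlapped. The 16.7% was 2 of 12 cells (2.09% to 48.4%), below the floor of 3 cells. Of the 14 D2 CTX members with 10 to 25% globin, only 4 were under the S100 limit, and these 4 held all 78 Mki67 UMIs of that class. Shares by globin class were not counted under the S100 limit. For the S phase list the shares were 81.0%, 14.3% and 60% in all members and 83.7%, 18.5% and 75% after the S100 limit. No phase was assigned to a cell from these counts.

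The D2 CTX members on either side of the S100 limit differed in what they carried beside globins. The 31 members with 1% and over had a median of 7.26% of UMIs from S100a8 and S100a9 and the other 31 had 0.391%. The 11 listed neutrophil genes summed to 350873 CPM in the former and 7589 CPM in the latter, with S100a8 the most abundant in both, but the list holds the S100a8 and S100a9 that made the split, so this gap restates it. Of the listed genes that the split did not use, Ly6g, a neutrophil surface protein, had 81 UMIs in 18 of the former and none in the latter, and Elane, neutrophil elastase, had 4 UMIs and none. Other neutrophil genes remained under the limit. There 7 of the 11 passed the filter against naive members, 3 higher and 1 lower on day 2, with a median of 0.78. Alas2 was at 2141 CPM (27 of 31 cells) with 1% and over and 3220 CPM (28 of 31 cells) under the limit, and Mkrn1 at 2263 CPM (25 cells) and 4369 CPM (30 cells). Alas2 and Mkrn1 were thus found in most cells on both sides of the limit. Xpo7 and Slc4a1 lay mostly under it, with 15 of 166 UMIs of Xpo7 and 21 of 341 UMIs of Slc4a1 in members with 1% and over. Transcripts of dividing or early erythroid cells were also mostly under the limit. All 32 UMIs of Klf1, all 7 of Car1, all 16 of Gata1 and all 26 of Pcna were in members under the limit, as were 317 of 324 S phase UMIs and 814 of 843 G2/M UMIs. Ptprc was at 1263 CPM in members with 1% and over and 194 CPM under the limit, against 1057 CPM in D2 CTX neutrophils. In naive members with S100a8 and S100a9 at 1% and over, the S phase list was at 4516 CPM and the G2/M list at 6679 CPM, against 8717 and 11979 CPM under the limit, so the contrast within naive BM was smaller.

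Markers of other cell types were summed in all members as a check of purity. The 11 neutrophil genes were at 15908, 172290 and 39014 CPM in naive, D2 CTX and D7 CTX members, and 9 of them were at least 1 log2 unit higher on day 2 and none lower. The 8 B lineage genes were at 69.7, 236 and 7.64 CPM, with Cd79a, which the rule excludes, among those at 0. The 9 genes of the macrophages that sit in erythroblastic islands were at 122, 429 and 61.2 CPM, with Slc40a1, the iron exporter that erythroid cells also express, the only one to pass the filter. The 5 monocyte genes were at 94.0, 311 and 7.64 CPM, the 6 T and NK genes at 51.0, 177 and 0 CPM, the 5 megakaryocyte genes at 40.7, 42.1 and 30.6 CPM and the 5 basophil and mast cell genes at 34.6, 8.42 and 0 CPM. The neutrophil list was thus the one that stood far above the others in each library, and its summed CPM was highest on day 2. Its part in the differences of other genes was not tested beyond the S100 limit given above.

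DNA damage by CTX is known to activate p53, and its part in the values below was not tested. Of 14 listed p53 targets 3 passed the filter, of which 2 were higher in D2 CTX members. The most abundant of them on day 2, Trp53inp1, a stress-induced regulator of autophagy, was at 25.2, 421 and 53.5 CPM in naive, D2 CTX and D7 CTX members, a log2 ratio of 4.01 (3.47 to 4.64), and 4.35 after the S100 limit. It was also at 163 CPM in D2 CTX neutrophils and 239 CPM in D2 CTX B lineage cells, against 55.9 and 140 CPM in naive ones. Mdm2, the ligase that degrades p53, was at 39.3, 84.2 and 45.9 CPM, a log2 ratio of 1.08 with an interval that held 0 (-0.01 to 2.05). Cdkn1a, the cell cycle inhibitor p21, had too few UMIs for the filter, with 16 UMIs in 9 naive members (7.48 CPM), 19 UMIs in 6 D2 CTX members (160 CPM) and none in D7 CTX members, where 3 UMIs would be 22.9 CPM. In erythroid cells below the globin threshold Cdkn1a was detected in 3 of 195 cells of naive BM, 35 of 45 on day 2 and 1 of 11 on day 7, at 0.775, 283 and 3.26 CPM. In those cells 668 of 6162 genes (10.8%) were higher on day 2 and 364 (5.91%) lower, and the D2 CTX cells had a median globin share of 0.00400% against 1.29% in naive ones. There 9 of the 10 p53 targets that passed the filter were higher on day 2 (median log2 ratio 2.87) and 4 of 5 progenitor genes (1.90). Of the genes of heme synthesis 10 of 11 were lower (-1.90), of the red cell membrane and skeleton 14 of 18 (-1.76), and of late clearance and enucleation 5 of 7 (-1.47), with none higher in these 3 lists. Car1 of the progenitor genes and Rhag and Ermap of the membrane genes were among the genes that picked these cells. The part of the lower globin share of the D2 CTX cells in these values was not tested. The D2 CTX cells also included 9 cells with Pf4, a platelet gene, at 361 CPM in the sum. Both megakaryocyte genes that passed the filter there were higher on day 2 (median 5.18). Of 11 neutrophil genes, 9 were lower and 2 higher (-2.25). Of 10 genes of the response to heme and oxidative stress, 6 passed the filter in members, and 1 was higher and 1 lower.

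The 12 D7 CTX members were too few for a comparison across genes, and only single genes are described. The 5 deepest of them held 80.1% of their 130825 UMIs outside globins, against 6.34% for the 5 deepest of 246 naive members. Alas2 was lower in D7 CTX members, at a log2 ratio of -0.97 (-1.35 to -0.62) over naive, as was Slc4a1 at -0.62 (-0.86 to -0.40). Alad, Klf1, Car1 and Car2 had ratios between -0.20 and 0.00, each with an interval that held 0, although the UMIs of Car1 came from 4 of the 12 cells. Mki67 was at -0.25 (-0.40 to -0.11) and Pcna at -0.69 (-1.12 to -0.30). The late genes Bpgm, Xpo7, Fam46c and Mkrn1 lay between -0.42 and 0.25, again with intervals that held 0, whereas all 4 were at least 2.76 log2 units above naive in D2 CTX members. In classes of globin share, 8 of the 12 D7 CTX members had 10 to 25%, as did 54.5% of naive members.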

How the data were processed

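The authors deposited counts of UMIs per gene and barcode for each library, without normalization, made with Cell Ranger 3.1 on the mouse genome build mm10 from 10x 3′ libraries. The submitters' processing notes also list Seurat 5.0. The study states more cells per library than there are barcodes in the files. The 3 whole-BM libraries held 7649, 6608 and 8605 barcodes and 47086837, 34764874 and 68459527 UMIs in naive, D2 CTX and D7 CTX BM, with at least 500 UMIs per barcode.

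Members and gene lists were chosen with earlier results of these data known. UMIs were summed over members and scaled to CPM outside the 4 globins. Log2 ratios were taken with 1 CPM added, for genes with at least 50 UMIs and 20 CPM. Shares have exact Clopper-Pearson, levels exact Poisson and ratios exact conditional intervals at 95%; a count of 0 was given the floor of 3 counts. With 1 library per condition there was no test. The comparison of all genes on day 7 needed 20 members and was not run, as there were 12. Erythroid cells below the globin threshold needed Klf1 and at least 2 of 5 other early erythroid genes. Neutrophils had at least 2% of UMIs from S100a8 and S100a9, no Cd79a and under 1% globin, and B lineage cells had Cd79a and under 1% globin. Doublets were kept. Cells were ranked by Scrublet score (scanpy 1.11.5), and the highest were called doublets up to an expected rate of 0.8% per 1000 cells. Genes named were those of the lists, the 15 highest and 15 lowest ratios of each members comparison and the 15 highest ratios of naive members over other naive cells; some of these genes are not reported here. On simulated data for the D2 CTX comparison, of 4673 genes tested, all 50 genes set 2 and all 50 set 3 log2 units higher were called, as were 96% and 100% of 50 genes set 2 and 3 lower. Unchanged genes were called in 13.7% of cases, and in 0.282% of the 710 at 200 CPM and over. The changed genes were drawn from those with at least 100 CPM in naive members, a level that Xpo7, Bpgm, Bcl2l1 and Trp53inp1 did not reach. Counts were drawn with Poisson error from the summed profile of naive members, so these rates leave out the spread between cells. Python 3.11.15, numpy 2.4.6, pandas 2.3.3, scipy 1.17.1, Biopython 1.88 and matplotlib 3.10.9 were used.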

Additional observations from a re-analysis of the deposited data

Results flagged for a closer look

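In 4 genes of the lists the members lay at least 1 log2 unit from naive in opposite directions on day 2 and day 7, with both counting intervals beyond 0, and none of these differences was tested. Hbq1b, a minor alpha-like globin, had a log2 ratio over naive of 1.83 in D2 CTX and -2.72 in D7 CTX members. Ighm, an immunoglobulin gene, had 1.55 and -2.75. Ltf, of neutrophil granules, had 3.66 and -4.81. Ly6c2, of monocytes and neutrophils, had 2.01 and -2.55. It was the 1 gene of the monocyte list that passed the filter. After the S100 limit that list was at -0.76 on day 2, with no gene higher. Each of the D7 CTX values rested on 1 UMI in 12 cells, with intervals from -8.19 to -0.37, from -8.21 to -0.39, from -10.29 to -2.50 and from -8.01 to -0.19.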

How the results depend on the processing

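Among the 38 genes and 8 lists recomputed, no value that passed the size rule changed sign, but values near 0 did: under the S100 limit the list medians of heme, iron, membrane, transcription factor and enzyme genes went from below to above 0, as did the log2 ratios of Car2, Gata1 and Mki67. Scaling by the median ratio turned the same values except heme, transcription factor and Gata1 ones. Epor, Isg20 and Tfrc also turned under the S100 limit. Outside the 8 lists, the monocyte list, with Ly6c2 as its 1 gene that passed the filter, went from 2.01 to -0.76 under that limit. Its value in all D2 CTX members had passed the size rule. No paired analysis was possible because each condition was 1 library of pooled mice. The log2 share of D2 CTX over naive was -2.53 with at least 500 genes and under 10% mitochondrial UMIs, -0.60 over all barcodes and also when barcodes under 200 genes were added, -2.26 without cells of 2% S100a8 and S100a9 or more, members included, and -2.59 under the S100 limit. That of D7 CTX was -3.05 without those cells and -2.92 with the neutrophil class out of the denominator and all members kept. Beta-globin in naive members was 63.5% with a 20% threshold, and 62.9%, 61.6% and 61.8% as the mean over naive, D2 CTX and D7 CTX cells. The counts of higher and lower genes were 172 and 741 with at least 200 UMIs, 2755 and 4047 with no filter, 980 and 1066 with scaling by the median ratio, 53 and 72 in members with 50% globin and over, and 296 and 396 with at least 200 CPM. With a 20% threshold 384 were higher, and 986 were lower where the interval also had to lie beyond 0. G2/M transcripts were found in 92.1% of naive members thinned to 1000 UMIs, 91.9% without thinning and 91.8% with 1 UMI, in 51.9% of D2 CTX members under the S100 limit, and in 100% of D7 CTX members thinned to 1000 UMIs, not thinned or with 1 UMI. The cause of these shifts was not tested, apart from the fewer genes or cells that each setting leaves. Of 492 values of 38 named genes, 316 stayed within counting error and 176 moved. Alternatives on the S100 limit, the neutrophil class, the deepest members, the 200 CPM minimum and the interval were chosen after seeing the data. Precision was limited by the 12 cells of D7 CTX and the 118794 UMIs outside globins of D2 CTX members.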
